A study of Mus musculus with 2 samples.

Results

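The nuclei described here are secretory luminal nuclei of the lactating mouse mammary gland in which more genes of a set led by Ucp3 and Nupr1 were detected than of a set led by Plpp4 and Elovl5. They number 5938 of 21805 barcodes (27.2%) and 44.1% of the 13480 nuclei that passed the rule for secretory nuclei. A secretory nucleus had at least 2000 unique molecular identifiers (UMIs, counts of single captured RNA molecules), under 5% mitochondrial UMIs, at least 3 of the 5 genes Elf5, Olah, Atp2b2, Slc28a3 and Gldc detected, and at most 1 UMI summed over Ptprc, Pdgfra, Pecam1, Trp63, Adipoq and Abcc9, genes of other cell types. It belonged to the class when at least 3 of the 5 genes Ucp3, Nupr1, Aqp9, Arg2 and Bicdl2 had a UMI and this number was above that for Plpp4, Elovl5, Tmem144, Pla2g4f and Kcnj15. These nuclei are called Ucp3-set nuclei. The mirror class, with at least 3 genes of the other set and more of it, holds 2833 Plpp4-set nuclei, and 4709 secretory nuclei fell in neither class. The nuclei were chosen by the detection of these 21 genes, so the levels of those genes in the classes are a description and carry no test.

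Nuclei came from the inguinal fat pad with its mammary gland, lymph nodes removed, of lactating dams on postnatal day 11 of their pups. The dams had been bred at 8 weeks of age and nursed 7 litters of 5 pups and 1 of 3, which the labels give as batches but do not link to single dams. The 4 control dams carried a floxed oxytocin receptor gene (Oxtr) and are named WT in the hashtag list. The other 4 carried an adipocyte-specific deletion of Oxtr and are named Oxtr-KO. The promoter behind the deletion is not stated, and WT was read as the floxed group because the labels give no other genotype. Nuclei of all 8 dams were marked with hashtags (DNA tags, 1 per dam) and sequenced as 1 pooled single-nucleus library, so the animal is the replicate. No nucleus barcode occurred more than once. The labels say that only some samples' nuclei were washed to reduce free RNA, and do not say which.

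Secretory luminal cells line the alveoli and make milk protein, lactose and milk fat under the control of prolactin, Stat5 and Elf5. Ucp3 encodes a mitochondrial inner membrane carrier of the uncoupling protein family, best known from muscle and brown fat. Nupr1 encodes a small chromatin-associated protein induced by cell stress. Aqp9 is an aquaglyceroporin that passes water, glycerol and urea, Arg2 is the mitochondrial arginase, and Bicdl2 is an adaptor of the dynein motor. In the other set, Plpp4 is a lipid phosphate phosphatase, Elovl5 elongates polyunsaturated fatty acids, Pla2g4f is a cytosolic phospholipase A2, Kcnj15 is an inward-rectifier potassium channel, and Tmem144 is a predicted carbohydrate transporter.

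Of the 5938 Ucp3-set nuclei, 4891 (82.4%) carried the hashtag of 1 named animal, 609 carried more than 1 hashtag, 432 carried none and 6 carried that of an unknown sample. Values per animal use the 4891, which gave 367 to 833 nuclei and 2261393 to 4895507 UMIs per animal. The calls depended on the method: with all 10 hashtags in place of 9 each animal had 244 to 556 Ucp3-set nuclei. A ratio rule asked for at least 3 UMIs of the top hashtag and at least 2 times those of the next. By that rule each animal had 43 to 976. Oxtr could not check the genotype labels: adipocyte-class nuclei held 0, 0, 1 and 1 Oxtr UMIs in WT animals 1 to 4 and 3, 0, 0 and 0 in Oxtr-KO animals 1 to 4, from 12 to 33 nuclei each. Ucp3-set nuclei had 3.10 to 8.03 Oxtr counts per 1000000 UMIs (CPM) in WT animals and 4.15 to 6.97 in Oxtr-KO animals, against 270.3 to 495 in myoepithelial-class nuclei, whose cells contract around the alveoli under oxytocin. The words labelled Oxtr-KO therefore stand for the hashtag's name alone. Depth in Ucp3-set nuclei did not differ beyond the spread between animals. The median was 5356 ± 373 UMIs per nucleus in WT animals and 5087 ± 289 in animals labelled Oxtr-KO (SD, n = 4 each; two-sided exact permutation p = 0.257, adjusted p = 0.514 over 4 measures), with 2051 ± 33.1 and 2021 ± 64.1 genes per nucleus. The median mitochondrial share was low in both, 0.0961 ± 0.00528% and 0.115 ± 0.00631% (exact permutation p = 0.0286, the smallest that 4 against 4 allows, adjusted p = 0.114).

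The secretory part of the name was set beside genes that the rule did not use. The reference classes hold only nuclei with at most 2 of the 5 secretory rule genes. Part of their contrast in other secretory genes was therefore set by that choice. Elf5, the transcription factor of alveolar secretory cells, is a gene of the rule, and its UMI in 94.1% of Ucp3-set nuclei is a description. Shares in reference classes are given as found and after each nucleus was thinned to 2000 UMIs, since the median depths were 5081 UMIs in Ucp3-set, 2975 in macrophage-class and 2794 in myoepithelial-class nuclei. The prolactin receptor gene Prlr, which hormone-sensing luminal cells express too, had a UMI in 63.4% of Ucp3-set nuclei against 4.6% and 5.7% in these classes (36.5%, 3.3% and 4.2% after thinning). Prlr was listed among the 10 hormone-sensing markers summed below, and not among the secretory markers. Xdh, whose product coats the milk fat globule, stood at 4231 CPM against 463 and 233, and at 491 CPM in adipocyte-class nuclei. Of the other listed secretory genes, Btn1a1 stood at 767 CPM against 99.4 and 116, and Fasn at 841 CPM against 93.5 and 93.6. In adipocyte-class nuclei Btn1a1 stood at 82.3 and Fasn at 398 CPM. The 10 hormone-sensing luminal markers summed to 858 CPM in Ucp3-set nuclei, of which Esr1, the estrogen receptor gene, gave 588 CPM. This sum was above the 167 and 226 CPM of macrophage-class and myoepithelial-class nuclei. It was below the 1098 CPM of adipocyte-class, 938 CPM of Plpp4-set and 871 CPM of neither-class nuclei. The 12 adipocyte markers summed to 536 CPM in Ucp3-set nuclei and to 29899 CPM in adipocyte-class nuclei, and the 10 macrophage markers to 30.0 and 7600 CPM in Ucp3-set and macrophage-class nuclei. These 2 lists include Adipoq and Ptprc, which the rule excluded, so part of their contrast was set by the choice of nuclei. None of the 12 adipocyte or 10 macrophage markers was at 0 UMIs in Ucp3-set nuclei.

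Milk protein RNA was found in all classes, those of other cell types included, and how much of it was free RNA was not tested. Wap, a whey protein gene, stood at 20112 CPM in Ucp3-set nuclei and at 19886 CPM in macrophage-class nuclei. Csn2, the gene of beta-casein, stood at 44721 and 25828 CPM, and Lalba, the gene of alpha-lactalbumin that turns galactosyltransferase to lactose synthesis, at 2154 and 1458 CPM. The genes of the Ucp3 set, whose detection chose the nuclei, were found less often in the reference classes. Ucp3 had a UMI in 91.9% of Ucp3-set nuclei, in 3.3% of macrophage-class and in 4.6% of myoepithelial-class nuclei, or 62.1%, 2.6% and 3.3% after thinning. Bicdl2 was found in 53.8%, 0.7% and 1.4%, and Arg2 in 85.5%, 5.3% and 6.2%. Aqp9 was found in 51.2%, 7.9% and 2.0% (24.6%, 7.3% and 1.2% after thinning), and at 51.7 CPM in macrophage-class nuclei it was higher there than in myoepithelial-class nuclei, at 6.5 CPM. Nupr1, at 97.5%, 22.5% and 22.8% (80.1%, 14.6% and 15.7% after thinning), was found more often in the reference classes, and in adipocyte-class nuclei Ucp3 was found in 26.4% and Nupr1 in 40.9%.

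The rest of the name, a state of Ucp3 and Nupr1, was set beside how often both genes were found in the other secretory nuclei. Ucp3 had a UMI in 66.4% of Plpp4-set nuclei and in 65.3% of those in neither class, and Nupr1 in 86.2% and 81.8%. After thinning, Ucp3 was found in 62.1%, 41.2% and 44.2% of Ucp3-set, Plpp4-set and neither-class nuclei, and Nupr1 in 80.1%, 66.3% and 66.5%. Of all secretory nuclei, 9883 of 13480 (73.3%) had at least 3 genes of the Ucp3 set. In 5904 nuclei at least 3 genes of both sets were detected, 1959 of which were Ucp3-set nuclei. A nucleus with 3 genes of each set was among the most frequent kinds (1357 nuclei), and the counts formed 1 cloud without a gap between the classes. For this reason the nuclei are called here by the rule and not by a state name.

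**Figure D1:**
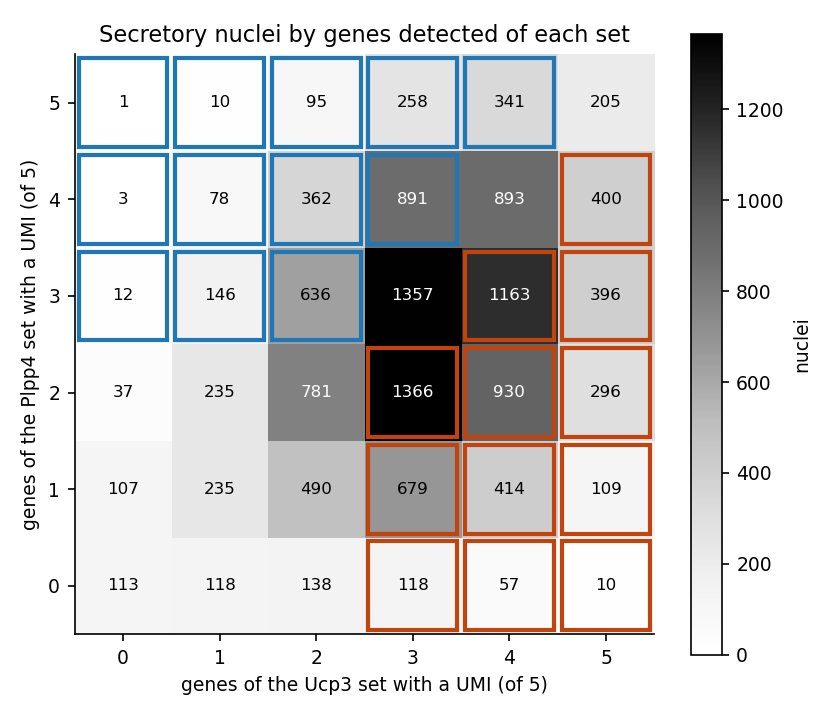
Number of secretory nuclei (grey scale and printed number) by how many of the 5 Ucp3-set genes (horizontal) and of the 5 Plpp4-set genes (vertical) had a UMI; red frames mark Ucp3-set nuclei and blue frames Plpp4-set nuclei. The most frequent cells, 1366 nuclei with 3 and 2 genes and 1357 nuclei with 3 and 3, lie on both sides of the red boundary.

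Membership moved with depth. Ucp3-set nuclei with 3, 4 and 5 genes of the set numbered 2163, 2564 and 1211, and their median depths were 4405, 5429 and 7083 UMIs. The levels of Ucp3 in these 3 groups were 485, 476 and 475 CPM, and those of Nupr1 were 1308, 1298 and 1301 CPM. Aqp9 stood at 65.1, 133 and 195 CPM and Bicdl2 at 69.5, 143 and 197 CPM. The rule counts detected genes, so these levels were set in part by it. At the edge of the rule, 2929 nuclei had 1 more Ucp3-set than Plpp4-set gene and stood at 458 CPM Ucp3, 194 CPM Plpp4 and 120 CPM Kcnj15. Just outside, 2455 nuclei with equal numbers of at least 3 stood at 426 CPM Ucp3 and 301 CPM Plpp4, with 6184 UMIs at the median. The 628 nuclei just outside with 2 Ucp3-set genes had 350 CPM Ucp3, 24.6 CPM Aqp9 and 3603 UMIs. After thinning each nucleus to 2000 UMIs the same rule chose 3559 nuclei, 2678 of them among the 5938, so that 45.1% of Ucp3-set nuclei kept their class.

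Within animals, the class difference was larger for Aqp9 and Bicdl2 than for Ucp3 and Nupr1. The rule selects on the detection of these genes, and Ucp3 and Nupr1 were found in nearly all Ucp3-set nuclei while Aqp9 and Bicdl2 were not, so the order of the differences was set in part by the rule. Levels were compared between the Ucp3-set and Plpp4-set nuclei of the same animal, as the mean log2 difference ± SD over 8 animals. Aqp9 was higher by 1.83 ± 0.46 and Bicdl2 by 1.63 ± 0.34, Arg2 by 0.54 ± 0.21, Ucp3 by 0.29 ± 0.21 and Nupr1 by 0.28 ± 0.13, each in 8 of 8 animals. Aqp9 ranged from 104.5 to 156 CPM in Ucp3-set nuclei and from 17.6 to 71.9 CPM in Plpp4-set nuclei, with no overlap. Bicdl2 ranged from 117.5 to 172 CPM and from 29.5 to 70.1 CPM, again with no overlap. For Ucp3 the animals spanned 261 to 671 CPM in Ucp3-set nuclei and 161 to 604 CPM in Plpp4-set nuclei, so that the spread between animals was larger than the step within an animal. In WT animal 4 the step in Ucp3 was 0.03, from 591 to 602 CPM, and in WT animal 1 it was 0.70, from 161 to 261 CPM. Nupr1 spanned 890 to 2174 CPM and 747 to 1794 CPM.

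Detection of the other set assigned the nuclei as well, so its differences were set in part by the rule. Of this set, Pla2g4f was lower in Ucp3-set nuclei by 1.73 ± 0.13, Plpp4 by 1.46 ± 0.74, Kcnj15 by 1.35 ± 0.50 and Tmem144 by 0.71 ± 0.30, each in 8 of 8 animals. Pla2g4f was the steadiest of these, with 27.4 to 46.9 CPM in Ucp3-set and 101 to 148 CPM in Plpp4-set nuclei. Elovl5 was lower by 0.19 ± 0.23, and higher in 2 of 8 animals. Its levels ran from 508 to 1896 CPM and from 635 to 2156 CPM, so that Elovl5 told animals apart more than classes. The genes of the secretory rule were close to level between the classes, from -0.15 ± 0.06 for Atp2b2, the calcium pump of the apical membrane, to 0.01 ± 0.07 for Elf5.

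**Figure D2:**
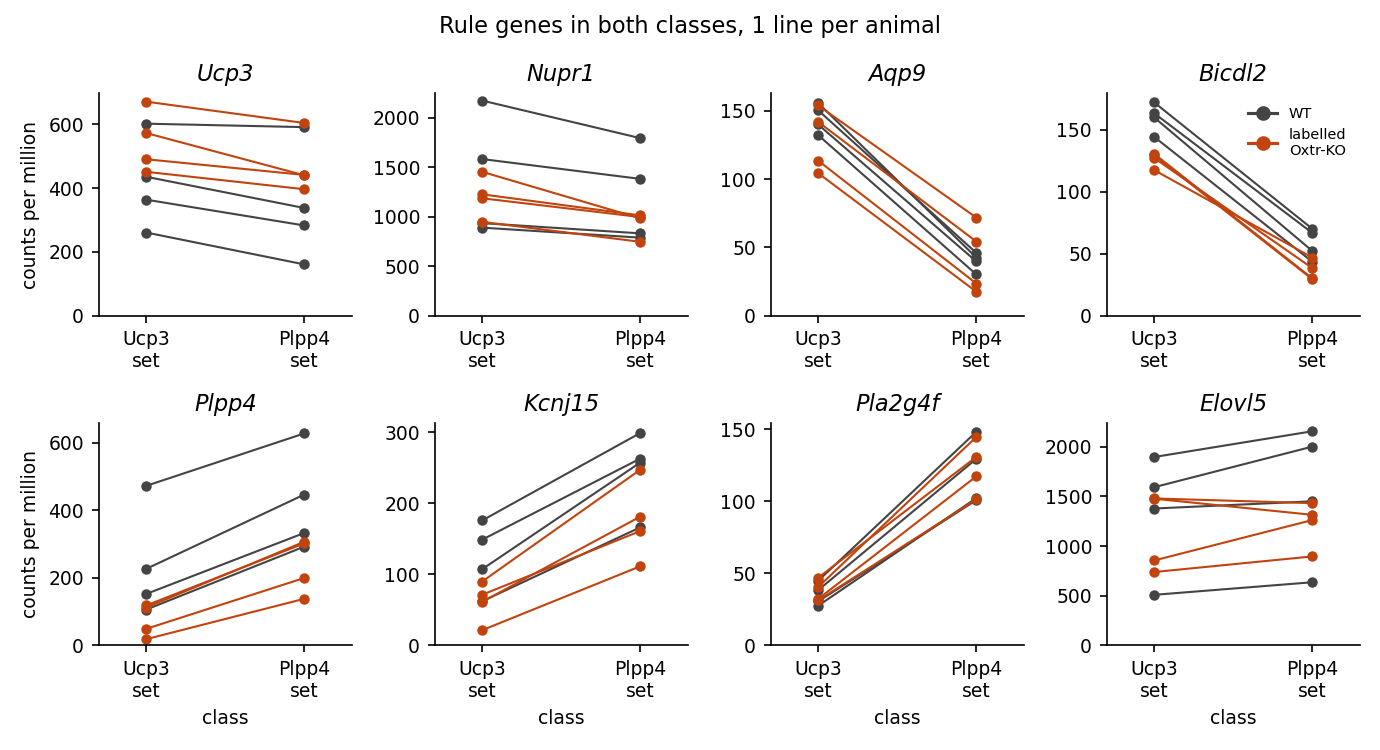
Level of 8 rule genes (CPM, vertical) in the Ucp3-set and Plpp4-set nuclei of each animal, 1 line per animal, WT in grey and animals labelled Oxtr-KO in red. Aqp9, Bicdl2 and Pla2g4f separate the classes without overlap, while the lines of Ucp3, Nupr1 and Elovl5 are spread more by animal than by class. Detection of these genes assigned the nuclei to the classes, so the separation was set in part by the rule.

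Few genes outside the rule followed the class. Of 11316 genes measured, 8 (0.0707%) differed by at least 1 on the log2 scale with the same sign in 8 animals, and 5 of these were rule genes (Aqp9, Bicdl2, Pla2g4f, Plpp4 and Kcnj15). The other 3, named after their values were seen, were genes of low count: Mcts2 (4.44 against 1.94 CPM), Dnal4 (7.11 against 3.28 CPM) and Cebpa (4.22 against 1.87 CPM). In neither-class nuclei Mcts2, Dnal4 and Cebpa stood at 3.79, 6.66 and 4.70 CPM, near or above their Ucp3-set levels. Cebpa encodes a transcription factor of differentiated epithelium and fat. Among 6084 genes outside the rule with at least 20 CPM in either class, 95% differed by less than 0.22. Higher in 8 of 8 animals were Kitl, the ligand of the receptor Kit (0.63 ± 0.64, 28.5 against 18.8 CPM), Cldn3, a claudin of tight junctions (0.34 ± 0.34), Rab5if (0.30 ± 0.20), Antxrl (0.29 ± 0.16) and Cdc42se1 (0.29 ± 0.20). Kitl stood at 32.5 CPM in neither-class nuclei, above its Ucp3-set level, while Cldn3, Rab5if, Antxrl and Cdc42se1 lay there between the Ucp3-set and Plpp4-set levels. In myoepithelial-class nuclei Kitl stood at 546 to 983 CPM per animal, and the part of free RNA in its values was not tested. Lower in 8 of 8 were Dpy19l3, a C-mannosyltransferase (-0.36 ± 0.29), Stx19, a syntaxin (-0.35 ± 0.27), Dyrk3, a kinase (-0.35 ± 0.25), Nsun6, an RNA methyltransferase (-0.34 ± 0.22), Slc7a2, a transporter of arginine and other cationic amino acids (-0.27 ± 0.15), and Elovl6, which elongates saturated fatty acids (-0.23 ± 0.18). For comparison, 109 of 6099 genes at this level (1.79%) had the same sign in 8 animals, and of all 11316 genes 75 (0.663%) were higher and 84 (0.742%) lower in 8 of 8.

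**Figure D3:**
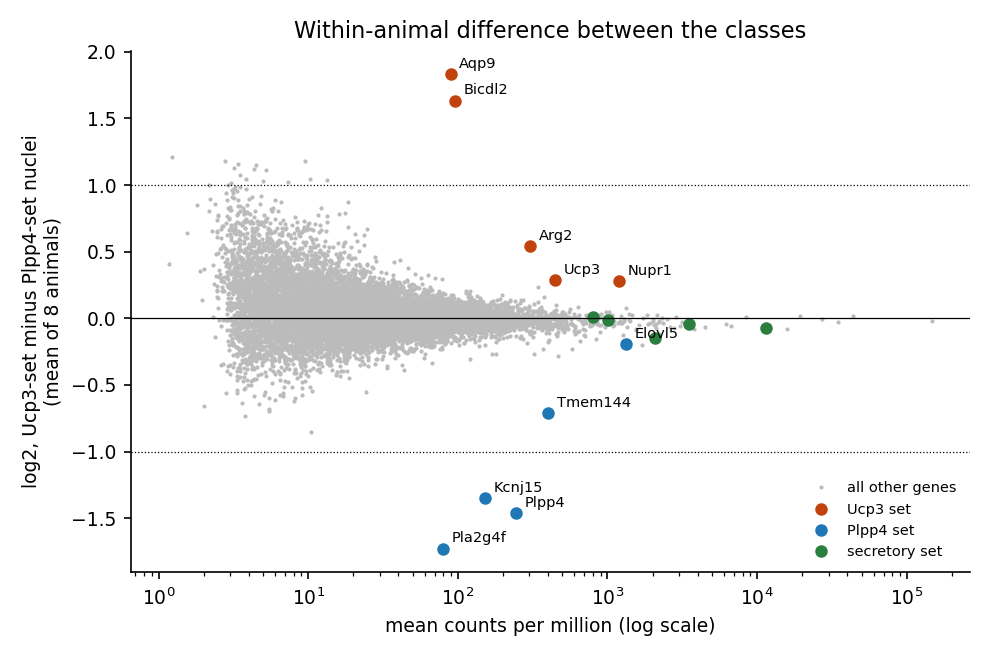
Mean over 8 animals of the log2 difference between Ucp3-set and Plpp4-set nuclei (vertical) against mean CPM (horizontal, log scale) for 11316 genes, with dotted lines at 1 and -1. Beyond the dotted lines at high counts stand Aqp9 and Bicdl2 above and Pla2g4f, Plpp4 and Kcnj15 below, with Ucp3 and Nupr1 between the lines. The named genes are rule genes, whose detection assigned the nuclei to the classes.

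Pathways of milk synthesis were level between the classes within an animal. Of 15 milk protein genes 9 were higher and 6 lower in Ucp3-set nuclei, with a median log2 difference of 0.01 beside 0.02 for all 11316 genes, and none had the same sign in 8 animals. Lalba differed by -0.02 ± 0.09. The medians of 15 milk fat secretion genes (0.01), 18 fatty acid synthesis genes (0.00) and 15 lactose synthesis genes (-0.02) were alike. Fatty acid elongases and desaturases were lower in 9 of 12, with a median of -0.05, and Elovl6 alone among them was lower in 8 of 8 animals. Cholesterol synthesis genes were higher in 16 of 20, with a median of 0.13, when 57% of all genes were above 0. Among them, Pmvk, the phosphomevalonate kinase, was at 0.42 ± 0.51 (13.8 against 10.4 CPM) and higher in 7 of 8 animals. The 26 fatty acid oxidation and PPAR target genes, a list that leaves out Ucp3 as a gene of the rule, had a median of 0.00, with Cpt1a at -0.34 ± 0.54 and Acadvl at 0.40 ± 0.46. The 26 measured genes of the integrated stress response, which induces Nupr1 in other settings and is listed without it, had a median of 0.05. Of the arginine and polyamine genes beside Arg2, 3 of 10 were higher, and Ass1, argininosuccinate synthase, was at -0.38 ± 0.33. In the glycine pathway, Amt, a subunit of the glycine cleavage system beside Gldc, was higher in 8 of 8 animals (0.72 ± 0.48, 12.5 against 7.62 CPM), whereas Gldc was level (-0.02 ± 0.10).

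The rule genes also differed between animals. Over all secretory nuclei of an animal, whatever the class, Ucp3 stood at 193, 300, 384 and 604 CPM in WT animals 1 to 4 and at 417, 455, 578 and 616 CPM in animals 1 to 4 labelled Oxtr-KO. WT animal 4 lay among the animals labelled Oxtr-KO and the other 3 WT animals lay below them. Nupr1 stood at 795, 824, 1485 and 2150 CPM and at 1115, 893, 1162 and 1175 CPM, with WT animal 4 the highest of 8. Plpp4 varied most of the rule genes, with 226, 531, 311 and 159 CPM in WT animals and 89.8, 151, 32.6 and 172 CPM in the others, a 16.3-fold range. Aqp9 (75.8 to 116 CPM) and Bicdl2 (86.8 to 134 CPM) varied 1.53-fold and 1.54-fold. Pla2g4f varied 2.01-fold and Kcnj15 5.70-fold. WT animals 1, 2 and 3 gave 65.2% of the Plpp4-set nuclei with a called animal but 32.6% of the Ucp3-set nuclei. Summed over nuclei of all animals without hashtag doublets, Ucp3 accordingly stood at 486 CPM in Ucp3-set and 321 CPM in Plpp4-set nuclei, against 484 ± 135 and 410.5 ± 151 CPM as means over animals.

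The share of secretory nuclei in the class was compared between genotypes. It rests on detection of the rule genes, so a shift of these genes in all secretory nuclei of an animal moves it too. The share cannot tell such a shift from a change in the make-up of the secretory epithelium. Ucp3-set nuclei made up 32.8%, 26.0%, 44.5% and 58.0% of the secretory nuclei of WT animals 1 to 4 and 51.2%, 55.0%, 57.5% and 53.0% in animals labelled Oxtr-KO. WT animal 4 had the highest share of 8, and the other 3 WT animals the 3 lowest. The means were 40.3 ± 14.0% and 54.2 ± 2.69% (SD, n = 4 each), a difference of 13.8 percentage points that did not pass the test (two-sided exact permutation p = 0.143, adjusted p = 0.214 over 3 shares). Plpp4-set nuclei made up 27.9 ± 13.2% and 12.8 ± 4.62% (exact permutation p = 0.114, adjusted p = 0.214), and nuclei in neither class 31.8 ± 1.29% and 33.1 ± 2.80% (exact permutation p = 0.486). Without WT animal 4 the Ucp3-set share was 19.7 points higher in animals labelled Oxtr-KO and the groups did not overlap (exact permutation p = 0.0286, the smallest 3 against 4 allows, adjusted p = 0.0429). With this animal, the highest of all, left out, the lack of overlap and this p followed from the order of the shares and support nothing. With any other single animal left out the exact permutation p was 0.171 to 0.229. Without WT animal 2 the difference was 9.06 points (exact permutation p = 0.229), and with at least 4 genes of the Ucp3 set asked for it was 4.58 points (exact permutation p = 0.314). At equal depth, with nuclei thinned to 2000 UMIs, the difference over all 8 animals was 6.36 points (exact permutation p = 0.343).

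**Figure D4:**
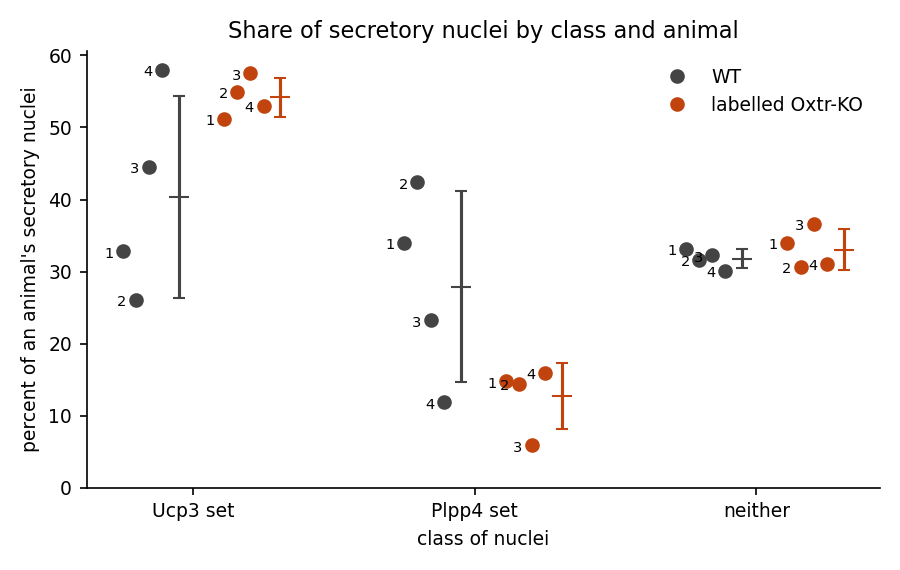
Percent of each animal's secretory nuclei in each class, 1 dot per animal with its number, and mean ± SD beside the dots; WT in grey, animals labelled Oxtr-KO in red. WT animals 1 to 3 lie below the animals labelled Oxtr-KO for the Ucp3 set, and WT animal 4, at 58.0%, lies above them.

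Between genotypes, no gene of 11339 tested in Ucp3-set nuclei passed an adjusted p of 0.05 by edgeR's quasi-likelihood test (0%), and 845 (7.45%) had an unadjusted p under 0.05, 452 (3.99%) higher and 393 (3.47%) lower in animals labelled Oxtr-KO. DESeq2 called 13 genes, 8 higher and 5 lower in animals labelled Oxtr-KO. The sums over all secretory nuclei gave 0 calls by edgeR as well, with 1137 of 13568 genes at an unadjusted p under 0.05. Without WT animal 4 edgeR called 26 genes, 12 higher and 14 lower, and with any other single animal left out it called 0. WT animal 4 was singled out with its values known. An adjusted p without it therefore supports nothing, here and for the genes below. In 443 genes (3.91%) the 4 animals of one genotype lay wholly above the 4 of the other, with the animals labelled Oxtr-KO above in 226 (1.99%) and below in 217 (1.91%).

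The gene of smallest p was Got1, the cytosolic aspartate aminotransferase of the malate-aspartate shuttle. Ucp3-set nuclei held 323, 338, 357 and 386 CPM in WT animals and 814, 595, 581 and 758 CPM in animals labelled Oxtr-KO. The groups did not overlap, and the log2 difference was 0.97 ± 0.14 (SE; edgeR adjusted p = 0.308, DESeq2 adjusted p = 8.68e-07, edgeR without WT animal 4 adjusted p = 0.0297). The last of these values is a description, since that animal was singled out. Got1 stood at 10.6 to 47.9 CPM in myoepithelial-class nuclei of WT animals and at 0 to 38.5 CPM in those of animals labelled Oxtr-KO. These values rest on only 2 to 9 and 0 to 7 UMIs per animal, too few to compare the genotypes there. Got1 differed little between the classes of secretory nuclei (-0.07 ± 0.18), and over all secretory nuclei the log2 difference between genotypes was 0.93.

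Eif4a2, a translation initiation helicase and among the 5 of smallest p on the higher side, had 202, 195, 181 and 185 CPM in WT animals and 291, 278, 280.0 and 272 CPM in the others, without overlap (log2 0.56 ± 0.10, edgeR adjusted p = 0.368, DESeq2 adjusted p = 9.9e-06). In myoepithelial-class nuclei Eif4a2 stood at 120 to 170 CPM in WT animals and at 188 to 242 CPM in animals labelled Oxtr-KO. These values rest on only 12 to 32 and 21 to 44 UMIs per animal, and the difference was not tested. Plekhg1 (log2 1.54, 2.08 ± 0.52 against 6.14 ± 0.58 CPM), Zfp949 (0.77, 40.2 ± 4.68 against 68.6 ± 9.31 CPM) and Tle3, a corepressor (0.85, 24.6 ± 5.16 against 45.1 ± 3.88 CPM), were the other 3 on the higher side (edgeR adjusted p = 0.368 each). Plekhg1 is of low count and can have passed the filter on low counts through the animals labelled Oxtr-KO alone. On the lower side stood Opcml, a cell adhesion molecule (-1.57, 10.1 ± 3.86 against 3.46 ± 0.31 CPM), Map7d1 (-0.99), Pkm, the pyruvate kinase of glycolysis (-0.71), Clec2d, a C-type lectin (-0.69), and Tgfbr2, a receptor of TGF-beta (-0.56). Clec2d had 574, 714, 745.5 and 459.5 CPM in WT animals and 408, 389, 360 and 387 CPM in the others, with WT animal 4 the lowest of its group. By DESeq2, Zfp949, Tle3, Opcml, Clec2d and Tgfbr2 passed, as did Hsd17b12, an enzyme of fatty acid elongation (log2 0.57, 310 ± 41.6 against 458 ± 37.2 CPM).

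**Figure D5:**
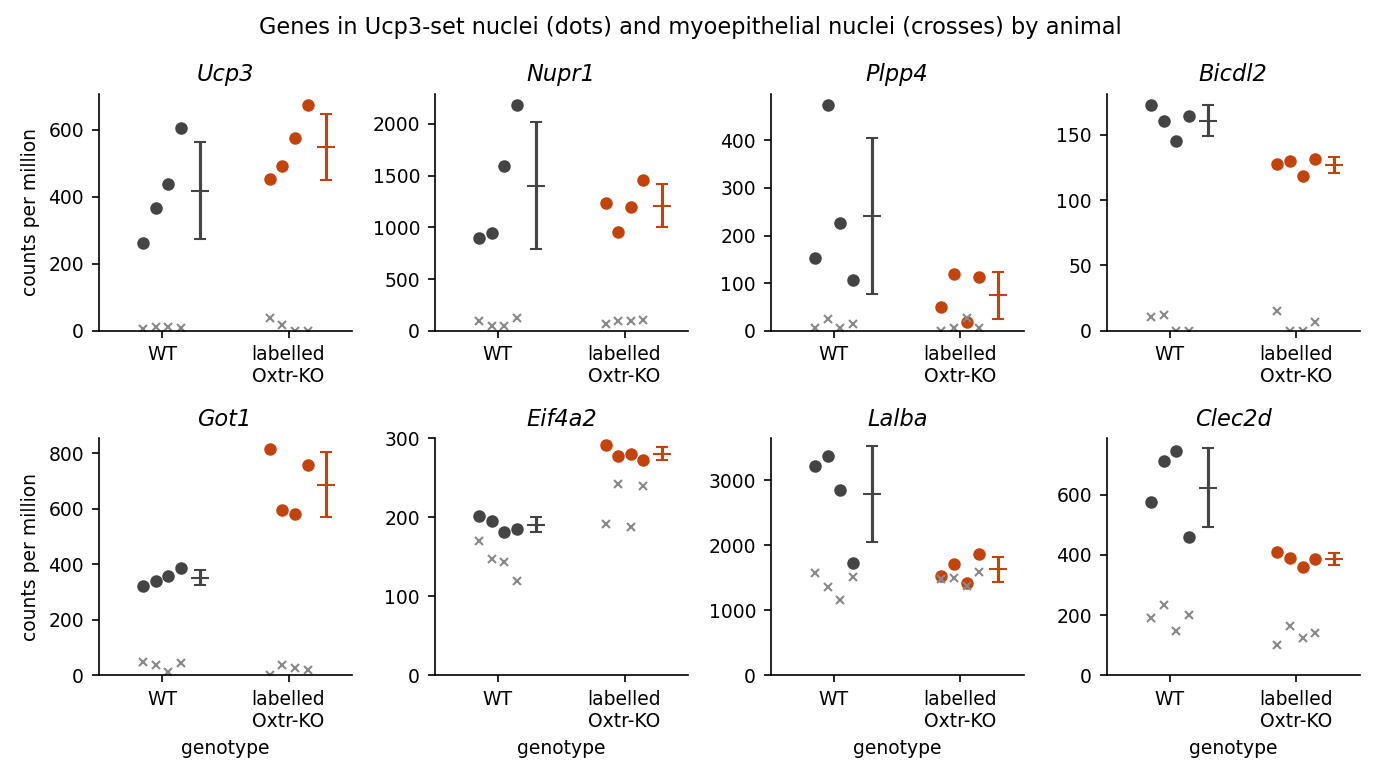
CPM (vertical) of 8 genes in Ucp3-set nuclei (dots, 1 per animal, mean ± SD beside them) and in myoepithelial-class nuclei (grey crosses) of WT animals and animals labelled Oxtr-KO. Got1, Eif4a2, Bicdl2 and Clec2d do not overlap between the genotypes in Ucp3-set nuclei. Lalba in animals labelled Oxtr-KO lies near its level in myoepithelial-class nuclei.

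The levels of the rule genes in Ucp3-set nuclei are given by genotype as a description, since their detection chose the nuclei. Ucp3 stood at 262, 366, 437.5 and 605 CPM in WT animals and at 453, 493, 575 and 674.5 CPM in the others, which overlap (log2 0.39 ± 0.23 SE). Nupr1 was at -0.21 ± 0.27 and turned to 0.08 without WT animal 4, Aqp9 at -0.17 ± 0.14 and Arg2 at -0.04 ± 0.18. Bicdl2 had 173, 161, 145 and 164 CPM in WT animals and 128, 130, 118 and 131 CPM in the others, without overlap (log2 -0.34 ± 0.10). Over all secretory nuclei its groups overlapped, at 105.7 ± 20.3 and 90.7 ± 1.77 CPM. Plpp4, still present in Ucp3-set nuclei, stood at 240 ± 164 and 74.6 ± 49.0 CPM (log2 -1.68 ± 0.55) and Kcnj15 at 124 ± 50.0 and 61.2 ± 29.1 CPM (log2 -1.01 ± 0.39). WT animal 4 had the lowest Plpp4 and Kcnj15 of the WT group, 106 and 62.4 CPM. Over all secretory nuclei, which were chosen without the 2 sets, the log2 difference was 0.45 for Ucp3 (edgeR adjusted p = 0.670), -0.30 for Nupr1 (edgeR adjusted p = 0.766) and -1.50 for Plpp4 (edgeR adjusted p = 0.555), and the groups overlapped in each.

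The lists of milk synthesis held no gene called by edgeR. Of 15 milk protein genes 4 had a higher and 11 a lower value in animals labelled Oxtr-KO, with a median log2 of -0.10 beside -0.01 for all 11339 genes, of which 49% were above and 51% below 0. Lalba had 3215, 3372, 2846 and 1730 CPM in WT animals and 1534, 1707, 1420 and 1861 CPM in the others (log2 -0.78 ± 0.21, edgeR adjusted p = 0.627). WT animal 4 lay among the animals labelled Oxtr-KO. Without it the log2 difference was -0.95 (edgeR adjusted p = 0.0357), which supports nothing, since this animal was left out with its values known. In myoepithelial-class nuclei Lalba stood at 1161 to 1575 CPM in WT animals and at 1368 to 1584 CPM in animals labelled Oxtr-KO, close to the Ucp3-set level of the latter. The part of free RNA in this value was not tested. The share of milk protein UMIs was 15.4 ± 0.818% and 15.1 ± 2.84% (exact permutation p = 0.943). Oxtr-KO animal 3 was low, at 10.9% against 16.1% to 17.2% in the other 3 of its group, and its 12 secretory markers summed to 94530 CPM against 127371 to 135622 CPM. Spp1, osteopontin, was at log2 0.91 ± 0.26 (61.9 ± 22.2 against 117 ± 34.6 CPM). Of 14 milk fat secretion genes 5 were higher and 9 lower. Plin2, the coat protein of the cytoplasmic lipid droplet, was at -0.46 (1147 ± 122 against 833 ± 156 CPM) and Plin3, a related coat protein, at 0.47 (46.6 ± 11.2 against 65.0 ± 9.74 CPM), with adjusted p = 0.627 by edgeR for both.

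No gene of the lipid lists was called by edgeR, and Hsd17b12 was called by DESeq2. An unadjusted edgeR p under 0.05 was found for 2 of 26 fatty acid oxidation and PPAR target genes and 1 of 18 fatty acid synthesis genes. It was found for 1 of 20 cholesterol synthesis genes, 2 of 12 elongases and desaturases and 3 of 13 triglyceride genes, beside 7.45% of all genes. The median log2 of all genes was -0.01, with 49% above and 51% below 0. Of 26 measured fatty acid oxidation and PPAR target genes 22 had a higher value in animals labelled Oxtr-KO, with a median log2 of 0.17, and Eci2 (0.85) and Acadl (0.80), enzymes of mitochondrial beta-oxidation, had the smallest p. Acadl had 16.3, 28.1, 24.7 and 38.0 CPM in WT animals and 22.0, 34.9, 63.0 and 69.9 CPM in the others, so that the groups overlapped. Adipocyte markers, some of which are PPAR targets, summed to 314 to 669 CPM in Ucp3-set nuclei of WT animals and to 463 to 785 CPM in the others, and their part in the list's values was not tested. Over Ucp3-set nuclei of all animals, Ghr gave 291 and Pnpla2 166 of the 536 CPM of this sum. Adipoq, Plin1, Plin4 and Cidec stood at only 1.26 to 2.78 CPM each. Of 18 fatty acid synthesis genes 13 were lower, with a median of -0.06, and Mlx, the partner of the carbohydrate response factor ChREBP, was at -0.53. Of 20 cholesterol synthesis genes 15 were lower, with a median of -0.19, and Msmo1, a sterol oxidase, had 15.1, 19.2, 18.7 and 12.8 against 10.6, 12.0, 5.8 and 7.7 CPM, without overlap (log2 -0.83 ± 0.24). Among triglyceride enzymes, Lpin1, a phosphatidate phosphatase, had 1497, 2064, 2356 and 2117 against 2591, 2460, 3086 and 2437 CPM, without overlap (log2 0.40 ± 0.17), and Agpat5 was at -0.45. Elovl6 was at 0.73 (253 ± 96.2 against 420 ± 151 CPM).

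Of 27 measured integrated stress response genes 21 had a lower value in animals labelled Oxtr-KO, with a median log2 of -0.35 and 3 at an unadjusted p under 0.05, all lower, beside 3.47% of all genes. Chac1, a glutathione-degrading target of ATF4, had 7.4, 6.1, 7.4 and 2.6 against 1.9, 2.2, 2.9 and 2.7 CPM (log2 -1.29 ± 0.36), and Atf5, a stress-induced transcription factor, 16.3, 19.6, 27.5 and 11.1 against 16.0, 8.4, 9.6 and 8.1 CPM (-0.81 ± 0.30). In both genes WT animal 4 was the lowest of its group. Of 23 endoplasmic reticulum folding genes 17 were lower, with a median of -0.10, among them Herpud1, which acts in the degradation of misfolded protein (-0.67). Fasting, FOXO and glucocorticoid targets were higher in 15 of 21 (median 0.24), with Irs2, an insulin receptor substrate, at 0.52. Clock genes were higher in 10 of 16 (median 0.26), with Per2 at 1.06 (2.51 ± 1.18 against 5.29 ± 1.19 CPM) and Nr1d2 at 0.71 (72.4 ± 18.1 against 119 ± 19.0 CPM), and no hour of collection is stated for an animal. Of 16 listed cell cycle genes 5 passed the filter on low counts, and all of these were higher, at low counts for Top2a (2.24 ± 1.47 against 5.66 ± 3.14 CPM). A gene of low count can pass this filter through 1 genotype alone, so the direction of such genes can be set in part by it. Spc25, of the kinetochore, had 29.9, 29.5, 28.0 and 78.1 CPM in WT animals and 59.1 to 76.2 CPM in the others, with WT animal 4 apart from its group. Over all 8 animals its log2 difference was 0.70 (edgeR adjusted p = 0.661), and without WT animal 4 it was 1.22 (edgeR adjusted p = 0.0135). Pkm passed only without WT animal 4 as well (-0.85, edgeR adjusted p = 0.0263, against 0.570 over all 8 animals). Clec2d had edgeR adjusted p = 0.0357 without WT animal 4 (-0.81) and 0.570 over all 8. With any other single animal left out edgeR called 0 genes. Since WT animal 4 was left out with its values known, the adjusted p of Spc25, Pkm and Clec2d without it support nothing.

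Whether the genotype difference was unlike in the 2 classes was tested as an interaction with the animal as a block. It was called for 2 of 11660 genes (0.0172%), Plpp4 and Pds5b, a cohesin regulator, with 553 genes (4.74%) at an unadjusted p under 0.05. Plpp4 had 152, 472, 226 and 106 CPM in Ucp3-set and 333, 628, 447 and 292 CPM in Plpp4-set nuclei of WT animals, and 48.8, 118, 18.2 and 112 CPM and 200, 302, 138 and 307 CPM in animals labelled Oxtr-KO. The genotype difference in Ucp3-set nuclei was lower by 0.78 ± 0.14 on the log2 scale than that in Plpp4-set nuclei. Detection of Plpp4 assigned nuclei to both classes, so its call supports nothing and is given as a description. For Pds5b the interaction was -0.53 ± 0.10 (edgeR adjusted p = 0.0175) and turned to 0.34 with nuclei thinned to 2000 UMIs for the rule. Pds5b had 194, 88.8, 64.0 and 105 CPM against 179, 74.7, 66.7 and 95.8 CPM in WT animals and 157, 160, 45.5 and 141 CPM against 227, 191, 64.5 and 187 CPM in the others. In Ucp3-set nuclei taken alone Pds5b was at 0.16 ± 0.39 between genotypes. Pds5b was not called without Oxtr-KO animal 1 (edgeR adjusted p = 0.419), WT animal 1 (0.206) or WT animal 2 (0.0851), nor by DESeq2. For Got1 the interaction was -0.02 ± 0.07, which was not called.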

How the data were processed

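The authors deposited raw UMI counts per gene and nucleus, whole numbers without normalization, and per-UMI read counts of hashtags. The build was GRCm39 and the tools named are Cell Ranger 7.2.0 and fastp, per the submitters' processing notes; the assignment of hashtag reads is not stated. The matrix held 21805 barcodes, 33943 genes and 107910356 UMIs. Seurat 5.3.0 (HTODemux) called the animal of each nucleus from 9 of 10 hashtags (positive quantile 0.99), and barcodes with more than 1 hashtag were removed from all values per animal. Doublets within an animal are not seen this way. No coordinates are given, since the reference at hand has another build.

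Counts of member nuclei were summed per animal and tested with edgeR 4.0.16 (quasi-likelihood, TMM scaling, filterByExpr, R 4.3.3, Benjamini-Hochberg threshold 0.05); DESeq2 1.42.0 was an alternative. CPM per animal are TMM-scaled, except those over all secretory nuclei, over a pooled class, in myoepithelial-class nuclei, of Oxtr and of summed markers, which are plain. The script was tested on simulated data. Differences between classes were described within animals (log2 of CPM with a prior count of 2), and shares were tested by exact permutation. Each dam gave 1 sample, so p-values measure the spread between dams, with its technical part included. Reference classes (macrophage, myoepithelial, adipocyte) rest on 151, 760 and 208 nuclei with their own markers and at most 2 secretory rule genes. The genes named are the rule genes, the 5 of smallest p in each direction, 2 per gene list by genotype and by class, the 5 of smallest interaction p and the 15 of largest same-sign class difference in each direction; a few of these are printed. Members, lists and tests were chosen with earlier results of these data known. Depth per animal is given with the results.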

Additional observations from a re-analysis of the deposited data

Results flagged for a closer look

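WT animal 4 stood apart from the other WT animals in Atp2b2, the apical calcium pump, in Ucp3-set nuclei, with 1356 CPM against 2636, 2520 and 2473 CPM. In animals labelled Oxtr-KO, animal 3 stood apart in the share of Plpp4-set nuclei, with 5.91% against 14.8%, 14.4% and 16.0%. These were 2 of 66 groups of 4 animals examined, and chance would mark about 1 group in 20.

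The genotype difference was unlike between Ucp3-set and Plpp4-set nuclei for Plpp4 (-0.78 on the log2 scale) and Pds5b (-0.53) by the interaction test, and neither was called without Oxtr-KO animal 1. Detection of Plpp4 assigned nuclei to the classes, so its value is a description. The value for Pds5b turned to 0.34 with nuclei thinned to 2000 UMIs.

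Outside the named animals, 6 Ucp3-set nuclei carried the hashtag Unknown_sample2, for which no group is given.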

How the results depend on the processing

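Genes called between genotypes in Ucp3-set nuclei (0) became 13 with DESeq2, 17 without a filter on low counts and 1 with nuclei thinned to 2000 UMIs, and ranged from 0 to 26 with 1 animal left out, the 26 without WT animal 4. The genes called for unlike genotype differences (2) became 4 with all 10 hashtags, 0 with the ratio rule for hashtags, 9 after thinning, 9 without a filter and 0 with DESeq2 (156 at an unadjusted p under 0.05), and ranged from 0 without Oxtr-KO animal 1 to 7 without Oxtr-KO animal 4. Without WT animal 2 it was 4 genes, neither Plpp4 nor Pds5b among them. The genes past the class threshold (8) became 5 with at least 4000 UMIs and 40 against nuclei in neither class, and ranged from 5 without Oxtr-KO animal 3 to 13 without WT animal 3. The share difference of Ucp3-set nuclei ranged from 9.06 points without WT animal 2 to 19.7 points without WT animal 4, and was 4.58 points when 4 Ucp3-set genes were asked for. The cause of these shifts was not tested.

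Of 73 genes named between genotypes, 65 kept their sign in every setting in which they were tested and 8 turned. Pla2g4f was -0.00218 with all 10 hashtags, -0.0279 after thinning and -0.29 over all secretory nuclei, and ranged from -0.0378 to 0.22 with 1 animal left out. Gldc was -0.0115 with the ratio rule and -0.0044 with the replicate block, and ranged from -0.0847 to 0.17. Aqp3 was -0.0255 with the ratio rule. Over all secretory nuclei Aqp9 was 0.0015 and Arg2 0.0328. With 1 animal left out Olah ranged from -0.19 to 0.0504, Nupr1 from -0.38 to 0.0827, Arg2 from -0.16 to 0.0943 and Tmem144 from -0.29 to 0.12. After thinning the interaction turned for Pds5b (0.34), Pip (0.26) and Tmeff2 (-1.72).

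Animals share only a replicate number between genotypes. The correlation of same-numbered animals was 0.22, -0.01, 0.24 and 0.15, and WT animal 1 correlated best with Oxtr-KO animal 2 (0.33). With the replicate block 0 genes were called between genotypes, with 1208 at an unadjusted p under 0.05, and the exact permutation p of the share was 0.25.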
